A study of Mus musculus with 16 samples.

Results

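The 10 chemokine genes described here are Ccl1, Ccl2, Ccl3, Ccl4, Ccl7, Ccl9, Ccl17, Ccl22, Cxcl2 and Xcl1. They were chosen by symbol, as the rows whose Ensembl identifier maps to any of these names on GRCm38, and they are 10 of the 39179 genes in each of 16 count files. RNA-seq was performed on bone marrow derived mast cells (BMMCs), which had been grown for 4 weeks with stem cell factor and IL3 from marrow of male C57BL/6 mice aged 8 to 10 weeks. The mice were PEP+/+ or PEP-/-, and PEP is the PEST-domain-enriched tyrosine phosphatase that Ptpn22 encodes. All cells were sensitized with IgE for 3 h, at 0.05 µg/ml in the sample labels and at a higher concentration in the published methods, so no group was free of IgE. IgE BMMCs received nothing else, and IgE DNP BMMCs were then activated for 1 h with 200 ng/ml of the antigen dinitrophenol on albumin (DNP). IgE DEX BMMCs were treated with the glucocorticoid dexamethasone (DEX) at 1e-07 M for 8 h, and IgE DNP DEX BMMCs received both. The labels give DEX for 8 h and DNP for 1 h, and none places DEX after the antigen. Below, DEX before DNP means IgE DEX against IgE, and DEX after DNP means IgE DNP DEX against IgE DNP. These names tell which cells were compared and not the order of treatment. Each of the 8 conditions has 2 replicates, a numbered sample (replicate 1) and a lettered sample (replicate 2). The published methods call them biological replicates, but no source used here says whether they came from separate mice or cultures, so p-values measure only the spread between these samples, which may be technical.

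Between 8612531 and 22143526 reads were counted on genes in each library. Ptpn22 had 130 to 2799 reads in the PEP+/+ libraries and 0 to 55 in the PEP-/- libraries. All 12 mast cell markers of a list were detected in every library, at levels that differed widely, with 31678 to 57856 CPM (CPM are reads of a gene scaled to a common library size, here by edgeR's TMM method) of the mast cell protease gene Cpa3 and 1805 to 4679 CPM of the stem cell factor receptor gene Kit, but 4.56 to 18.5 CPM of Mcpt4 and 1.66 to 162 CPM of Tpsab1. Of the markers of other cells, the macrophage gene C1qa (1 of 10), the neutrophil gene Camp (1 of 7) and the lymphocyte genes Cd3e, Cd3g and Ms4a1 had no read in any library, while the macrophage genes Cd68 (8.74 to 43.3 CPM) and Adgre1 (1.05 to 6.38 CPM) were seen in all.

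Chemokines are small secreted proteins that direct the migration of leukocytes by binding receptors on their surface, and the CC, CXC and C families are named after the spacing of their cysteines. When antigen cross-links IgE on the high-affinity receptor of a mast cell, transcription factors such as NFAT, AP-1 and NF-kB are switched on, and chemokine genes are among their known targets. Glucocorticoids act through the glucocorticoid receptor, which is known for restraining inflammatory genes.

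Several of these genes are neighbours in the genome. On GRCm38, Ccl2 (ENSMUSG00000035385, chr11:82035571-82037453, plus strand), Ccl7 (ENSMUSG00000035373, chr11:82045712-82047525, plus strand) and Ccl1 (ENSMUSG00000020702, chr11:82176657-82305690, minus strand) share a cluster. A second cluster holds Ccl9 (ENSMUSG00000019122, chr11:83572919-83578636, minus strand), Ccl3 (ENSMUSG00000000982, chr11:83647844-83649355, minus strand) and Ccl4 (ENSMUSG00000018930, chr11:83662584-83664683, plus strand). Ccl22 (ENSMUSG00000031779, chr8:94745590-94751699) and Ccl17 (ENSMUSG00000031780, chr8:94810453-94812036) lie together on the plus strand. Cxcl2 (ENSMUSG00000058427, chr5:90903871-90905938, plus strand) and Xcl1 (ENSMUSG00000026573, chr1:164931644-164935527, minus strand) lie apart from the rest. No exon of the 10 genes overlaps an exon of another gene in this annotation.

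Promoter windows of 250 bases before the RefSeq start (GRCm38.p6) were found for 7 of the 10 genes, and Ccl2, Ccl4 and Ccl7 had no entry. The windows of Ccl1, Ccl3 and Cxcl2, whose levels differed strongly with DNP, are shown with those of Ccl9 and Ccl17, whose levels differed less. The windows are chr11:82179813-82180062 (Ccl1, minus strand), chr11:83649379-83649628 (Ccl3, minus strand), chr5:90903649-90903898 (Cxcl2, plus strand), chr11:83578637-83578886 (Ccl9, minus strand) and chr8:94810203-94810452 (Ccl17, plus strand). The Ccl1 window lies inside the longer span that GENCODE gives the gene and holds none of its exons. Capitals mark matches on either strand to GGAAA, the core that NFAT binds, to TGANTCA, the AP-1 motif, or to the NF-kB consensus.
Ccl1: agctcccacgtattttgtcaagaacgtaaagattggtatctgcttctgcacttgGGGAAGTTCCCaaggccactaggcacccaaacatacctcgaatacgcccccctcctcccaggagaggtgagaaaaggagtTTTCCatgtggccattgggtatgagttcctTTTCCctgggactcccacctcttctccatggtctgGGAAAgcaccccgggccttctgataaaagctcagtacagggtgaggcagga
Ccl3: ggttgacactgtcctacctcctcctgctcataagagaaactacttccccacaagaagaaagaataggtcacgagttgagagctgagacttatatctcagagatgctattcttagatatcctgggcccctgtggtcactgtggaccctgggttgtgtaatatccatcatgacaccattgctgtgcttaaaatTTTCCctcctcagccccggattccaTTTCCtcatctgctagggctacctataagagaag
Cxcl2: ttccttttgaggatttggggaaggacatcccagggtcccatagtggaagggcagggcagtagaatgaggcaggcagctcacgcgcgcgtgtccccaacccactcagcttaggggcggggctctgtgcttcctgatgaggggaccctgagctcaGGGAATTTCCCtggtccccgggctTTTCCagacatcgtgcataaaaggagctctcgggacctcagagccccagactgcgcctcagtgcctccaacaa
Ccl9: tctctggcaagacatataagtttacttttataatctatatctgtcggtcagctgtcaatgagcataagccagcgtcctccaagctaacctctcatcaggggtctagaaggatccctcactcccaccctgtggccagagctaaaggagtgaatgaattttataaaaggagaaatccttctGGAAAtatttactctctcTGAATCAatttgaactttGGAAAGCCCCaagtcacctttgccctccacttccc
Ccl17: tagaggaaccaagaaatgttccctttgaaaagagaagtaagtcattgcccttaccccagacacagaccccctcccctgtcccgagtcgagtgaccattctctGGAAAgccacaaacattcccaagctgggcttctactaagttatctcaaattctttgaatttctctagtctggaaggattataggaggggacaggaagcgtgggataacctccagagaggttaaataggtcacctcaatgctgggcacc
The NF-kB consensus was matched in 3 of the 7 windows, by GGGAAGTTCC from 196 to 187 bases before the start in Ccl1, by GGGAATTTCC from 97 to 88 bases before it in Cxcl2, and on the opposite strand from 35 to 26 bases before it in Ccl9. In all 32851 RefSeq windows of the same length, 7.25% held such a match. GGAAA was found in 6 of the 7 windows (all but Ccl22) and in 55.6% of all windows, and in Cxcl2 and Ccl9 a GGAAA match overlapped the NF-kB match. TGANTCA was found only in the Ccl9 window, from 53 to 47 bases before the start, and in 6.75% of all windows. A match of letters is a description and does not show that a factor binds there.

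DNP raised the expression of 5 chemokine genes in both genotypes, namely Ccl1, Ccl2, Ccl3, Ccl4 and Ccl7. Of the 10 genes, 8 passed the filter on low counts, all but Ccl22 and Xcl1, and 5 of these 8 were called higher in PEP+/+ and 5 of 8 in PEP-/-. Genes with an adjusted p-value under 0.05 in edgeR's quasi-likelihood test were called, which held for 4.01% of 13305 genes higher in PEP+/+ and 4.69% in PEP-/-. The median log2 fold change of the 8 tested chemokine genes was 5.57 in PEP+/+ and 6.16 in PEP-/-, against 0.01 and -0.02 over all genes tested. Every DNP library lay above every IgE library for 8 of the 8 genes in each genotype, and for 19% and 21.8% of all genes. The genes passed the filter partly through the libraries in which they were high. Cxcl2 passed only through its DNP libraries, with 14 to 46 reads there against 0 to 5 in the libraries without DNP. Its share in the counts and medians by DNP, here and below, is therefore not independent of the filter.

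Ccl3 and Ccl4 encode macrophage inflammatory proteins, and CCL3 binds CCR1. Ccl4 expression was 4.92 and 4.94 CPM in the PEP+/+ IgE libraries and 1328 and 1524 CPM after DNP. In PEP-/- BMMCs it was 4.83 and 3.75 CPM after IgE and 881 and 1708 CPM after DNP. All 4 DNP libraries lay far above all 4 IgE libraries. On the log2 scale Ccl4 rose by 8.17 ± 0.48 (SE) in PEP+/+ (adjusted p = 5.12e-06) and 8.24 ± 0.48 in PEP-/- (adjusted p = 5.02e-06). Ccl3 expression was 11.8 and 6.16 CPM after IgE and 1004 and 704 CPM after DNP in PEP+/+, and 11.8 and 6.58 CPM after IgE and 481 and 568 CPM after DNP in PEP-/-. The groups did not overlap, and replicate 1 was the higher of the IgE libraries in both genotypes. The log2 fold change of Ccl3 was 6.57 ± 0.54 in PEP+/+ (adjusted p = 4.01e-05) and 5.84 ± 0.52 in PEP-/- (adjusted p = 6.24e-05).

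Ccl2 and Ccl7 encode attractants of monocytes that act through CCR2, and CCL7 also binds other CC receptors. Ccl7 expression was 2.72 and 2.17 CPM after IgE and 570 and 664 CPM after DNP in PEP+/+, and 3.19 and 2.47 CPM after IgE and 294 and 389 CPM after DNP in PEP-/-. Ccl7 rose by 7.97 ± 0.38 on the log2 scale in PEP+/+ (adjusted p = 1.33e-06) and 6.93 ± 0.36 in PEP-/- (adjusted p = 2.68e-06). Ccl2 differed from the other 4 genes in its level before DNP, which was the highest of the 10. It was measured at 201 and 155 CPM after IgE and at 1254 and 986 CPM after DNP in PEP+/+, and at 173 and 180 CPM after IgE and 654 and 713 CPM after DNP in PEP-/-. The DNP libraries again lay above all IgE libraries, with a log2 fold change of 2.65 ± 0.24 in PEP+/+ (adjusted p = 6.8e-05) and 1.95 ± 0.23 in PEP-/- (adjusted p = 0.000423).

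Ccl1 encodes the ligand of CCR8. Its expression was 1.84 and 1.47 CPM after IgE and 128 and 281 CPM after DNP in PEP+/+, and 1.00 and 2.37 CPM after IgE and 82.3 and 230 CPM after DNP in PEP-/-. Replicate 2 was the higher DNP library in both genotypes, and the DNP and IgE groups did not overlap. On this scale Ccl1 rose by 6.93 ± 0.78 in PEP+/+ (adjusted p = 0.000342) and 6.47 ± 0.76 in PEP-/- (adjusted p = 0.000423). Leaving out any library in turn kept the calls of these 5 genes by DNP in both genotypes.

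Ccl9, a ligand of CCR1, was expressed in all 16 libraries and moved less. It was measured at 45.5 and 23.8 CPM after IgE and 101 and 95.2 CPM after DNP in PEP+/+, and at 47.3 and 24.6 CPM after IgE and 90.3 and 95.2 CPM after DNP in PEP-/-. The groups did not overlap, but replicate 1 was well above replicate 2 after IgE. Its log2 fold change of 1.50 ± 0.50 in PEP+/+ was not called (adjusted p = 0.12), nor was that of 1.37 ± 0.49 in PEP-/- (adjusted p = 0.138). With the replicate set as a block, Ccl9 was called in both genotypes (adjusted p = 0.000682 and 0.000822). In that fit 7 of 8 chemokine genes were called higher in each genotype, against 11.2% of all genes in PEP+/+ and 13.3% in PEP-/-.

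**Figure D1:**
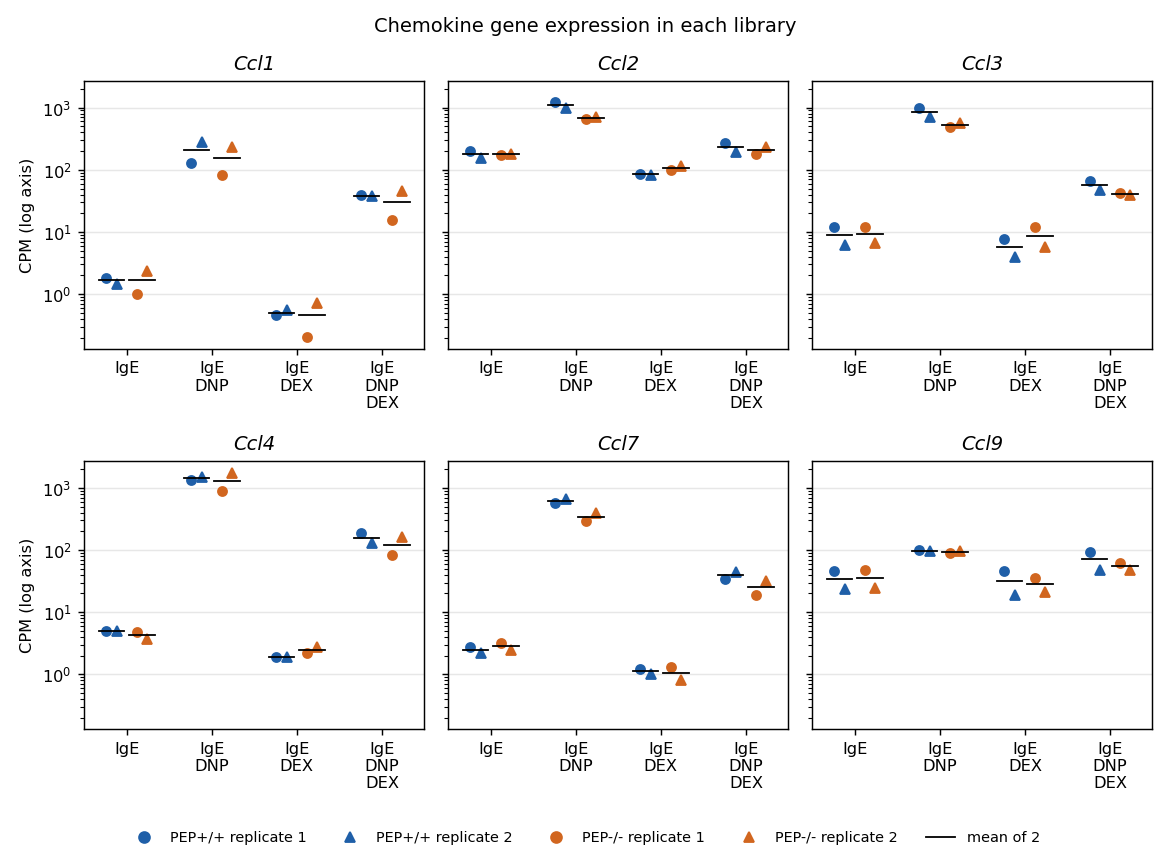
Expression (CPM, log axis) of 6 chemokine genes in each of the 16 libraries by treatment, with PEP+/+ in blue, PEP-/- in orange, replicate 1 as circles, replicate 2 as triangles and the mean of 2 replicates as a line. Ccl4 rose from 3.75 to 4.94 CPM after IgE to 881 to 1708 CPM after DNP, while Ccl2 and Ccl9 started from higher levels.

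Cxcl2 encodes a ligand of CXCR2, a receptor of neutrophils, and its counts were low. It had 3 and 0 reads in the PEP+/+ IgE libraries and none in either PEP-/- IgE library. After DNP it was measured at 4.35 and 1.58 CPM in PEP+/+ and at 1.48 and 0.881 CPM in PEP-/-, so that all 4 DNP libraries lay above all IgE libraries. The pooled reads gave a 25.8-fold higher level with DNP in PEP+/+ (60 against 3 reads, exact 95% interval 8.43 to 129, covering counting error only). In PEP-/- the level was 11.4-fold higher when a floor of 3 counts over the group stood in for no reads (34 reads against none). That value takes the 34 reads as exact, so it is not comparable with the interval. The fit without the block did not call Cxcl2 (adjusted p = 0.0914 and 0.0679), and the fit with the block did (adjusted p = 0.00106 and 0.00207).

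Xcl1, the ligand of XCR1, was seen in 6 libraries. It had 4 and 13 reads after DNP in PEP+/+ and 4 and 13 reads in PEP-/-, 1 and 0 reads after IgE in each genotype, and none in the 8 DEX libraries. The pooled reads were 22.0-fold higher with DNP in PEP+/+ (17 against 1 read, interval 3.44 to 918) and 17.0-fold higher in PEP-/- (17 against 1 read, interval 2.67 to 712). With DEX and DNP together, and the same floor in place of no reads, the Xcl1 level was 6.9-fold lower than with DNP in PEP+/+. It was 4.35-fold lower in PEP-/-. These values take the 17 reads with DNP as exact. Ccl22, a ligand of CCR4, had 9 reads in all, each in a DNP library, and is close to the limit of detection. Ccl17, the other CCR4 ligand, was detected in every library at 0.819 to 2.60 CPM, with 9 to 43 reads, and was called in no comparison by edgeR, with or without the block, or by DESeq2.

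**Figure D2:**
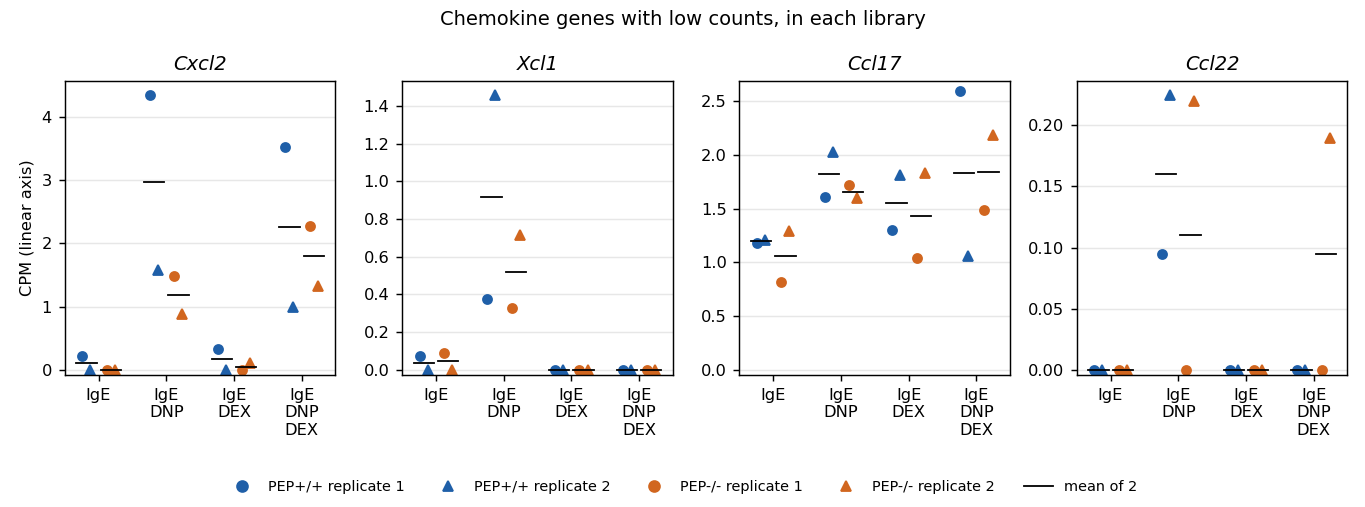
Expression (CPM, linear axes of different height) of Cxcl2, Xcl1, Ccl17 and Ccl22 in each of the 16 libraries by treatment, with genotypes by colour, replicates by symbol and means of 2 as lines. Cxcl2 was high in the DNP libraries with or without DEX, Xcl1 was at 0 in the 8 DEX libraries, and Ccl17 lay between 0.819 and 2.60 CPM throughout.

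DEX lowered the DNP-activated expression of Ccl2, Ccl3, Ccl4 and Ccl7 in both genotypes. Of the 8 tested chemokine genes, 4 were called lower in IgE DNP DEX than in IgE DNP in each genotype, against 1.05% of all genes in PEP+/+ and 1.19% in PEP-/-. The median log2 fold change of the 8 genes was -2.35 in PEP+/+ and -2.04 in PEP-/-, against -0.03 and 0.01 over all genes. Every library with DEX lay below every library without it for 6 of the 8 in each genotype, and for 18.8% and 19% of all genes. These comparisons use the same IgE DNP libraries as the comparisons with IgE above, so a library that is high there enters both.

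Ccl7 and Ccl3 kept the smallest shares of the activated level among the 8 tested genes, and their shares overlapped between replicates. Ccl7 fell to 34.5 and 44.0 CPM in PEP+/+ and to 18.8 and 32.2 CPM in PEP-/-. These are 6.37% and 7.47% of the mean IgE DNP level, with a log2 fold change of -3.97 ± 0.31 in PEP+/+ (adjusted p = 3.67e-05) and -3.74 ± 0.31 in PEP-/- (adjusted p = 7.2e-05). Ccl3 was measured at 65.2 and 47.0 CPM in PEP+/+ and at 41.8 and 39.6 CPM in PEP-/-, which is 6.57% and 7.76% of the level with DNP alone. Its log2 fold change was -3.93 ± 0.47 (adjusted p = 0.000802) and -3.69 ± 0.47 (adjusted p = 0.00116). Neither gene overlapped between the groups with and without DEX.

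Ccl4 was measured at 188 and 129 CPM in PEP+/+ IgE DNP DEX BMMCs and at 83.6 and 162 CPM in PEP-/-, leaving 11.1% and 9.49% of the activated level. Its log2 fold change was -3.17 ± 0.38 (adjusted p = 0.000719) and -3.40 ± 0.38 (adjusted p = 0.000503). Ccl2 kept more of its level, with 272 and 192 CPM in PEP+/+ and 182 and 234 CPM in PEP-/-, or 20.7% and 30.4%. Its log2 fold change was -2.27 ± 0.23 (adjusted p = 0.000234) and -1.72 ± 0.23 (adjusted p = 0.00162). With DEX and DNP together, the Ccl2 libraries (182 to 272 CPM) overlapped those of IgE (155 to 201 CPM), while Ccl3, Ccl4 and Ccl7 stayed above it in every library. No library left out alone removed a call of these 4 genes, but a fit to the compared PEP-/- conditions alone kept the call of Ccl3 only.

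Ccl1 was measured at 38.8 and 37.4 CPM in PEP+/+ and at 15.8 and 44.9 CPM in PEP-/- with DEX and DNP, 18.7% and 19.4% of the activated level. In PEP+/+ the share was 30.4% for replicate 1 and 13.3% for replicate 2, and leaving out a library moved the log2 fold change in PEP-/- between -3.31 and -1.44. All of these libraries lay below those with DNP alone, but the log2 fold change of -2.42 ± 0.62 in PEP+/+ (adjusted p = 0.06) and of -2.37 ± 0.61 in PEP-/- (adjusted p = 0.0675) missed the threshold. The block fit called Ccl1 in both genotypes (adjusted p = 0.00014 and 8.53e-05), as did DESeq2. In the block fit 5 of 8 chemokine genes were lower in PEP+/+ and 6 of 8 in PEP-/-, where 9.76% and 9.33% of all genes were called.

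Ccl9 and Cxcl2 were among the genes that kept most of their activated level. Ccl9 was measured at 93.9 and 48.5 CPM in PEP+/+ and at 62.9 and 47.1 CPM in PEP-/-, or 72.7% and 59.3% of the level with DNP alone. For Ccl9 the log2 fold change was -0.46 ± 0.48 in PEP+/+ (adjusted p = 0.757) and -0.75 ± 0.49 in PEP-/- (adjusted p = 0.595), and the block fit called the second (adjusted p = 0.0426). Cxcl2 was measured at 3.52 and 0.999 CPM in PEP+/+ and at 2.27 and 1.33 CPM in PEP-/-. It was not called in either genotype.

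**Figure D3:**
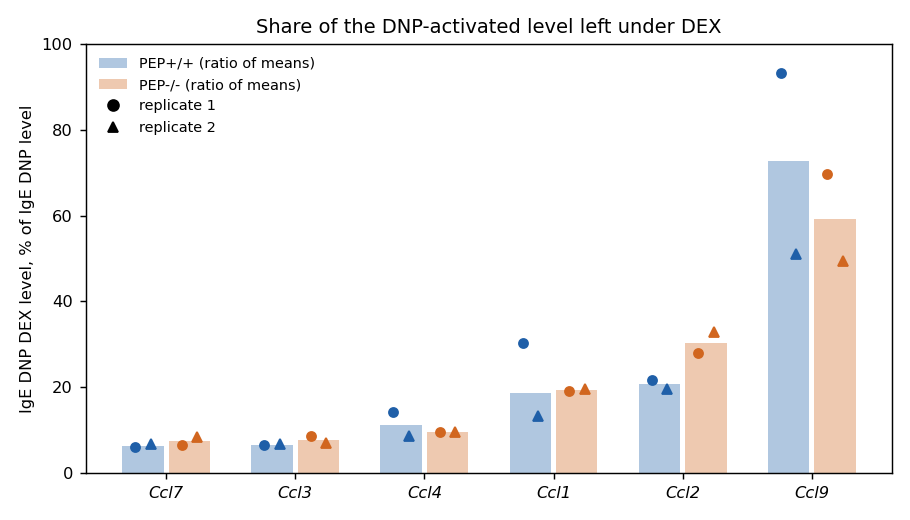
Level in IgE DNP DEX BMMCs as a percentage of that in IgE DNP BMMCs for 6 chemokine genes, with bars for the ratio of the means of 2 replicates, circles for replicate 1 and triangles for replicate 2, by genotype. Ccl7 and Ccl3 kept 6.37% to 7.76% of the level, Ccl2 20.7% and 30.4%, and Ccl9 59.3% and 72.7%.

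Without antigen, fewer chemokine genes were called by DEX than with it. Of the 8 tested genes, 1 was called lower in PEP+/+, namely Ccl2, and 0 in PEP-/-, against 0.932% and 0.985% of all genes. In PEP-/-, 3 genes had an unadjusted p under 0.05 and DESeq2 called 2. Ccl2 was measured at 85.0 and 83.7 CPM in PEP+/+ IgE DEX BMMCs and at 98.9 and 114 CPM in PEP-/-, below every IgE library. The log2 fold change was -1.08 ± 0.23 in PEP+/+ (adjusted p = 0.0235) and -0.74 ± 0.22 in PEP-/- (adjusted p = 0.122). The PEP+/+ call was lost without IgE replicate 1 (adjusted p = 0.204) or without either IgE DEX replicate (adjusted p = 0.158 and 0.163).

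Ccl4, Ccl7 and Ccl1 were also lower in every IgE DEX library than in every IgE library of the same genotype. With Ccl2 that is 4 of 8 tested genes in each genotype, and 17.3% and 17.5% of all genes were lower in this way. Ccl4 was measured at 1.89 and 1.93 CPM in PEP+/+ and at 2.23 and 2.75 CPM in PEP-/-, with a log2 fold change of -1.36 ± 0.40 and -0.79 ± 0.40. Ccl7 was measured at 1.24 and 1.01 CPM in PEP+/+ and at 1.30 and 0.814 CPM in PEP-/-, with a log2 fold change of -1.13 ± 0.35 and -1.34 ± 0.35. Ccl1 was measured at 0.456 and 0.547 CPM in PEP+/+ and at 0.207 and 0.712 CPM in PEP-/-, with a log2 fold change of -1.69 ± 0.83 and -2.11 ± 0.89. Without the block edgeR called none of these 3 genes, with an unadjusted p under 0.05 for Ccl4 and Ccl7 in PEP+/+ and for Ccl1 and Ccl7 in PEP-/-. DESeq2 called Ccl4 in PEP+/+ (adjusted p = 0.0338) and Ccl7 in PEP-/- (adjusted p = 0.0364), and edgeR with no filter called Ccl1 in both genotypes (adjusted p = 0.00301 and 0.00021), Ccl4 in PEP+/+ (0.003) and Ccl7 in PEP-/- (0.01). The block fit called Ccl2, Ccl4 and Ccl7 in PEP+/+ and Ccl2 and Ccl7 in PEP-/-, against 7.8% and 7.03% of all genes. Ccl3 and Ccl9 overlapped between IgE and IgE DEX in both genotypes.

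Antigen still raised the same 5 genes in the presence of DEX. Ccl1, Ccl2, Ccl3, Ccl4 and Ccl7 were called higher in IgE DNP DEX than in IgE DEX in both genotypes, 5 of 8 tested against 2.95% of all genes in PEP+/+ and 2.99% in PEP-/-. The log2 fold change of Ccl4 was 6.37 ± 0.45 in PEP+/+ and 5.64 ± 0.44 in PEP-/-, and that of Ccl3 was 3.29 ± 0.47 and 2.20 ± 0.45. Ccl1 had the same log2 fold change of 6.21 in both genotypes, with an SE of 0.80 and 0.84. Ccl7 had log2 fold changes of 5.13 ± 0.35 and 4.53 ± 0.35, and Ccl2 of 1.46 ± 0.23 and 0.97 ± 0.22. The adjusted p lay between 3.67e-05 and 0.00436 in PEP+/+ and between 5.1e-05 and 0.0367 in PEP-/-. With the block 7 of 8 genes were called in each genotype, adding Ccl9 and Cxcl2, against 11.7% and 10.3% of all genes.

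A fit to the compared conditions alone lost all 5 of these calls in PEP-/- (adjusted p from 0.0599 for Ccl4 to 0.261 for Ccl2). The calls of Ccl2 and Ccl3 were also lost when single libraries were left out. Without PEP+/+ IgE DEX replicate 2 the adjusted p in PEP+/+ was 0.069 for Ccl2 and 0.0523 for Ccl3. In PEP-/- both calls were lost without IgE DEX replicate 2 (adjusted p = 0.176 and 0.202) or without IgE DNP DEX replicate 2 (adjusted p = 0.268 and 0.07). Ccl2 was also lost there without IgE DEX replicate 1 (adjusted p = 0.229), and Ccl3 without IgE DNP DEX replicate 1 (adjusted p = 0.0621).

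**Figure D4:**
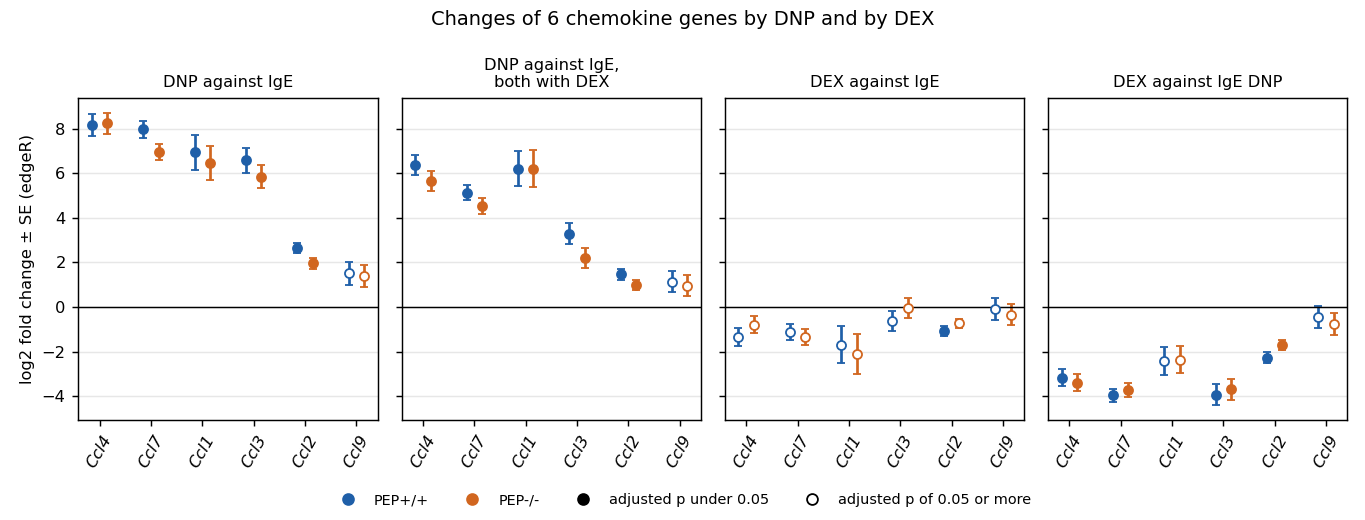
Log2 fold change ± SE of 6 chemokine genes in 4 comparisons, with PEP+/+ in blue, PEP-/- in orange and filled points at an adjusted p under 0.05 in edgeR (2 replicates per condition). DNP raised Ccl4 by 8.17 and 8.24 without DEX and by 6.37 and 5.64 with it, whereas Ccl1 rose by 6.93 and 6.47 without DEX and by 6.21 with it in both genotypes.

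The interaction term asked whether the fold response to DNP differed with DEX, averaged over the genotypes. It was called lower for Ccl3 (-3.46 ± 0.44, adjusted p = 0.00857), Ccl7 (-2.62 ± 0.32, adjusted p = 0.00762) and Ccl4 (-2.21 ± 0.38, adjusted p = 0.0387), 3 of 8 tested genes against 0.271% of all genes. The Ccl4 call held in 2 of the 16 fits that left out a library and the Ccl7 call in all but the fit without PEP-/- IgE DEX replicate 1 (adjusted p = 0.0585). For Ccl2 the interaction was -1.09 ± 0.22 (adjusted p = 0.1), and the block fit called it (adjusted p = 0.00725), with 4 of 8 chemokine genes called against 1.07% of all genes. For Ccl1 it was -0.49 ± 0.80 and was not called, and its levels with DEX were lower both before and after DNP.

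The 10 chemokine genes together made up 194 to 270 CPM of the IgE libraries, and Ccl2 accounted for 71.5% to 81.5% of this sum. After DNP the sum was 4390.5 and 4258 CPM in PEP+/+ and 2486 and 3707 CPM in PEP-/-, and Ccl4 was the largest contributor in each library. With DEX and DNP it was 699 and 500 CPM in PEP+/+ and 409 and 563 CPM in PEP-/-, with Ccl2 again the largest at 38.4% to 44.6%. The activated libraries with DEX thus lay between the IgE libraries and those with DNP alone. In bulk samples, fewer cells expressing a gene and less RNA per cell cannot be told apart.

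Expressed per kilobase of exon, Ccl2 stood first after IgE in PEP+/+ with 156 ± 29.0 CPM per kb (SD, n = 2), ahead of Ccl3 with 11.7 ± 5.16 and Ccl9 with 11.4 ± 5.04, which overlapped. After DNP the order in PEP+/+ was Ccl4 with 2160 ± 210 CPM per kb, Ccl3 with 1115 ± 277, Ccl2 with 984 ± 167, Ccl7 with 770 ± 82.6, Ccl1 with 86.2 ± 45.7 and Ccl9 with 32.2 ± 1.28. Only Ccl3 and Ccl2 overlapped among these 6. The order was the same in PEP-/- after DNP, and no neighbours among the 6 overlapped there. The lowest Ccl3 library (628 CPM per kb) was barely above the highest Ccl2 library (627), so their separation depends on the gene length used. With DEX and DNP, Ccl4 with 240 ± 62.9 and Ccl2 with 204 ± 50.0 CPM per kb overlapped at the top in PEP+/+, followed by Ccl3 with 73.3 ± 16.8. The order of the 6 genes after IgE DNP DEX was the same in PEP-/-, with 186 ± 84.2 for Ccl4 and 183 ± 31.7 for Ccl2.

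Markers of other cells were compared between the same groups. The summed level of 3 basophil markers found of 4 (Mcpt8, Prss34 and Cd200r3) was 539 to 623 CPM after IgE, 750 to 882 CPM after DNP, 228 to 392 CPM after DEX and 431 to 479 CPM after DNP and DEX, so it moved with DNP and with DEX. Most of it was Cd200r3 (198 to 837 CPM), which edgeR called lower by DEX in both genotypes, with and without DNP. Cd200r3 was also called higher by DNP under DEX in PEP-/-. The 12 mast cell markers summed to 67494 to 76296 CPM after IgE, 76667 to 93384 CPM after DNP, 74350 to 82785 CPM after DEX and 87882 to 114939 CPM after DNP and DEX, and edgeR called Hdc and Tpsab1 higher by DNP in both genotypes. The 10 macrophage and monocyte markers summed to 19.2 to 29.1 CPM after IgE and 24.7 to 39.9 CPM after DNP in PEP+/+, and to 33.2 to 33.7 CPM and 45.1 to 54.5 CPM in PEP-/-. With DEX alone they summed to 22.4 to 27.2 CPM in PEP+/+ and 31.2 to 42.6 CPM in PEP-/-. With DNP and DEX they summed to 31.8 to 40.9 CPM in PEP+/+ and 51.1 to 58.5 CPM in PEP-/-. Of the 5 tested, Cd14 (0.434 to 4.68 CPM over all libraries) was called higher by DNP in both genotypes. The 9 lymphocyte markers summed to 0.637 to 3.52 CPM over all libraries, with Ncr1, the 1 tested, called higher by DNP in PEP-/-. The 8 dendritic cell markers summed to 14.8 to 43.0 CPM and the 7 neutrophil markers to at most 2.35 CPM. The part of these lists in the chemokine results was not tested.

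No chemokine gene was called between the genotypes in any treatment. After DNP the levels in PEP-/- lay below those in PEP+/+ for Ccl2 (log2 fold change -0.71 ± 0.22, unadjusted p = 0.00828, adjusted p = 0.717), Ccl7 (-0.85 ± 0.27, unadjusted p = 0.00956, adjusted p = 0.731) and Ccl3 (-0.70 ± 0.42, adjusted p = 1). All PEP-/- libraries lay below all PEP+/+ libraries for 5 of the 8 tested genes, these 3 with Ccl9 and Cxcl2, and for 12.1% of all genes. For Ccl9 (-0.08 ± 0.48) the nearest libraries of the genotypes both rounded to 95.2 CPM. For Cxcl2 they were at 1.48 CPM (18 reads) in PEP-/- and 1.58 CPM (14 reads) in PEP+/+. The genotypes overlapped for Ccl1 (-0.39 ± 0.58) and Ccl4 (-0.14 ± 0.35), whose direction changed when single libraries were left out. The block fit called Ccl7 (-0.86, adjusted p = 0.0366), 1 of 8 tested genes against 1.56% of all genes called lower.

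In edgeR 0.00752% of all genes, a count of 1 that was Ptpn22 itself, were called between genotypes with DNP, DEX, both or neither. Of the 8 chemokine genes, 2 had an unadjusted p under 0.05 with DNP alone, 1 with DNP and DEX, and 0 with DEX alone or with neither, and DESeq2 called 0 in each treatment. Averaged over treatments, 1.59% of all genes and 0 of 8 chemokine genes were called, with 0 by DESeq2 and 0 at an unadjusted p under 0.05. The response to DNP did not pass the test of a difference between genotypes for any chemokine gene, where 0% of all genes were called. In that test 2 of the 8, Ccl2 and Ccl7, had an unadjusted p under 0.05 and DESeq2 called 0. For the response to DEX in DNP-activated BMMCs, 0% of all genes, 0 of 8 chemokine genes, 0 by DESeq2 and 0 at an unadjusted p under 0.05 differed between genotypes.

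Genes whose log2 CPM followed each chemokine gene most closely over the 16 libraries were found among all genes tested. Ccl1 was nearest to Gch1 (Pearson's r = 0.992) and Tnip3 (0.99), Ccl4 to Tnip3 (0.989) and Nr4a2 (0.988), and Ccl7 to Stx6 (0.987) and Cdk17 (0.981). Ccl3 was nearest to Il6 (0.982) and Stx6 (0.976), and Ccl2 to Rgs16 (0.969) and the cytokine gene Il13 (0.962). Ccl9 was nearest to Emd (0.967) and Ube2a (0.966), Cxcl2 to Pmaip1 (0.954) and Rab38 (0.946), and Ccl17 to Acd (0.836) and Ccdc59 (0.834). Among the chemokine genes themselves r was highest for Ccl4 with Ccl7 (0.989) and lowest for Ccl9 with Ccl17 (0.306). These values describe 8 conditions with shared treatments, and libraries of a treatment share their position, so they are not independent. By Spearman's rho, 0 of the 2 nearest genes stayed the same for Ccl3, Ccl4, Ccl7 and Ccl9, and 1 of 2 for Ccl1, Ccl2, Ccl17 and Cxcl2.

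Expression was not shared by all genes of a cluster. In the first chromosome 11 cluster, Ccl11 and Ccl8, which lie between Ccl7 and Ccl1, had no read in any library, and Ccl12 had 21 reads in all. In the second, Ccl5 was measured at 0.278 CPM after IgE and at 3.23 CPM after DNP on average over 4 libraries, far below its neighbours Ccl3 and Ccl4. Cxcl1, the chemokine gene next to Cxcl2, had no read. Cx3cl1, which lies between Ccl22 and Ccl17 and encodes fractalkine, was at 0.337 CPM after IgE and at 10.8 CPM after DNP on average.

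Of 28 other chemokine symbols, 8 genes passed the filter on low counts. By DNP edgeR called Cx3cl1 alone, in both genotypes, where 4.01% of all genes in PEP+/+ and 4.69% in PEP-/- were called higher. The block fit called 3 of the 8 in PEP+/+ and 4 in PEP-/-, against 11.2% and 13.3% of all genes called higher. Cx3cl1 expression rose from 0.147 and 0.347 CPM to 9.08 and 10.8 CPM in PEP+/+ (log2 fold change 5.31 ± 0.75, adjusted p = 0.00162) and from 0.546 and 0.309 CPM to 11.1 and 12.3 CPM in PEP-/- (4.80 ± 0.70, adjusted p = 0.00164). Cxcl12, the ligand of CXCR4, was the 1 gene of these 8 that edgeR without the block called by DEX, and it rose. The share of all genes called higher by DEX was not counted. With the block, Cx3cl1, Ccl5 and Cxcl16 were also called by DEX after DNP in both genotypes, all lower, and DESeq2 called Cx3cl1 as well. The block fit called 9.76% of all genes lower there in PEP+/+ and 9.33% in PEP-/-. Cxcl12 was measured at 2.74 and 2.14 CPM after DNP and at 18.5 and 15.7 CPM after DNP and DEX in PEP+/+ (2.80 ± 0.59, adjusted p = 0.0253), and at 1.56 and 3.03 CPM and 18.1 and 28.1 CPM in PEP-/- (3.31 ± 0.58, adjusted p = 0.00983). The PEP+/+ call was lost without any single library of the comparison (adjusted p from 0.0546 to 0.154), and the PEP-/- call without 3 of the 4 libraries compared (adjusted p from 0.0584 to 0.114). The median log2 fold change of these 8 genes was 0.93 by DNP in PEP+/+ and 0.85 in PEP-/-, against 0.01 and -0.02 over all genes.

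Of 18 chemokine receptor genes, 9 passed the filter and 2, Cxcr4 and Cx3cr1, rose with DEX in both genotypes. The share of all genes called higher by DEX was not counted, so these 2 cannot be set against it. By DNP edgeR called 0, where 4.01% of all genes in PEP+/+ and 4.69% in PEP-/- were called higher. An unadjusted p under 0.05 in edgeR was seen for 4 in PEP+/+ and 1 in PEP-/-, and DESeq2 called 1 in each, Ccr1. Cxcr4 rose from 1.89 and 0.9 CPM after DNP to 28.8 and 30.6 CPM after DNP and DEX in PEP+/+ (log2 fold change 4.38 ± 0.41, adjusted p = 0.000152) and from 1.31 and 0.936 CPM to 39.7 and 28.2 CPM in PEP-/- (4.93 ± 0.42, adjusted p = 8.69e-05). On the log2 scale Cx3cr1, the receptor of fractalkine, rose by 1.86 ± 0.30 in PEP+/+ (adjusted p = 0.00588) and by 1.76 ± 0.30 in PEP-/- (adjusted p = 0.00752). The Cx3cr1 call after DNP was lost without PEP+/+ IgE DNP replicate 2 (adjusted p = 0.0572) and, in PEP-/-, without IgE DNP replicate 1, IgE DNP replicate 2 or IgE DNP DEX replicate 1 (adjusted p from 0.0561 to 0.0994). Ccr1, the receptor of Ccl3 and Ccl9, and Ccr2, that of Ccl2 and Ccl7, were looked at after their values were seen. Ccr1 was measured at 123 and 66.0 CPM after IgE and 375 and 181 CPM after DNP in PEP+/+, and at 137 and 77.5 CPM and 430 and 300 CPM in PEP-/-, and was called by DNP with the block (adjusted p = 4.17e-06 and 7.5e-07) and not without it (adjusted p = 0.0952 and 0.0505). By DEX after DNP the log2 fold change of Ccr1 was -1.06 ± 0.48 in PEP+/+ and -1.14 ± 0.48 in PEP-/-. That of Ccr2 was -2.27 ± 1.26 and -2.45 ± 1.21. Without the block edgeR called neither gene, and the block fit called both in both genotypes (adjusted p from 5.21e-06 to 0.000206). That fit called 9.76% and 9.33% of all genes lower. The median log2 fold change of the 9 receptor genes by DEX after DNP was -1.06 in PEP+/+ and -1.14 in PEP-/-, against -0.03 and 0.01 over all genes. Of 5 atypical chemokine receptor genes, 2 passed the filter, and edgeR and DESeq2 called 0 by DNP or by DEX, with Ccrl2 alone at an unadjusted p under 0.05, by DNP in PEP-/- with and without DEX. The block fit called Ccrl2 there without DEX (adjusted p = 0.0154) and Ackr1 by DEX before and after DNP in both genotypes (adjusted p from 0.000891 to 0.00957).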

How the data were processed

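RNA from 16 samples of BMMCs was sequenced. The authors aligned the paired reads with TopHat2 to GRCm38, counted them on Ensembl genes with HTSeq and deposited whole-number counts per gene and sample, without normalization. The strand setting of the counting is not given in the sources used here. Rows naming no gene held 29.1% to 49.6% of each file and were left out. Positions on GRCm38 were taken from GENCODE M21, which holds 96.21% of the identifiers.

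The 10 genes and all gene lists were chosen with earlier results of these data known. Counts were tested with edgeR 4.0.16 (R 4.3.3, TMM, filterByExpr with a minimum count of 10, a mean for each of 8 conditions, 16 samples, 8 residual degrees of freedom), and p-values were adjusted by Benjamini-Hochberg over the 13305 genes kept. Log2 CPM for correlations used a prior count of 2. Named besides the 10 genes were Ptpn22, listed genes called in both genotypes by DNP or by DEX after DNP, the 2 genes most like each member, and cluster neighbours. Alternatives were DESeq2 1.42.0, its size factors, other filters, only the conditions compared, a replicate block and each library left out.

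Pairing comes from the sample titles, which number 1 replicate of each condition and letter the other. Deviations from the group means correlated in all 28 pairs of conditions (r from 0.453 to 0.799), so a further fit used the set as a block. The main fit leaves this pairing out, and calls given without mention of the block come from it. The common biological coefficient of variation was 0.312 without and 0.133 with it. Tested on simulated data for DNP in PEP+/+, the fit without the block recovered 60% of 200 altered genes at a log2 fold change of 2, with 6 false calls, and 0% at 1. The simulated counts were independent, with no shared difference between the sets. Reads carry no molecular identifiers, so intervals cover counting error only. Floors cover only the counting error of the group without reads. Measurements by qRT-PCR were not analysed here.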

Additional observations from a re-analysis of the deposited data

Results flagged for a closer look

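The difference between IgE DNP DEX and IgE DNP BMMCs had opposite signs in the genotypes for Cxcl2. The log2 fold change was -0.44 in PEP+/+ and 0.63 in PEP-/-, with lower levels in both replicate pairs of PEP+/+ and higher levels in both of PEP-/-. The difference itself was tested and did not pass (interaction 1.07, adjusted p = 1 in edgeR), and the counts were 14 to 46 reads per library. The cause was not tested.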

How the results depend on the processing

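Counts of called chemokine genes depended on the settings as follows. Requiring 10 or more reads in each library left 4 chemokine genes, and 3 of them were called by DNP and by DNP under DEX in each genotype. By DEX before DNP, DESeq2 called 2 in each genotype, no filter 3 in PEP+/+ and 2 in PEP-/-, and the replicate block 3 in PEP+/+ and 2 in PEP-/-. With only the conditions compared in the fit, 0 were called by DEX before DNP in PEP+/+, 1 by DEX after DNP in PEP-/- and 0 by DNP under DEX in PEP-/-. The block raised the count between genotypes after IgE DNP to 1, Ccl7. Leaving out 1 library at a time gave 0 to 1 calls by DEX before DNP in PEP+/+, 3 to 5 by DNP under DEX in PEP+/+, 3 to 4 in PEP-/-, and 1 to 3 for the interaction of DNP and DEX. Those fits also changed directions of values that were not called. The log2 fold change by DEX before DNP ran from -0.89 to 0.45 for Ccl9 in PEP+/+, from -0.75 to 0.21 for Ccl9 in PEP-/- and from -0.68 to 0.44 for Ccl3 in PEP-/-. Between genotypes after IgE DNP it ran from -1.28 to 0.31 for Ccl1 and from -0.67 to 0.28 for Ccl4, and by DEX after DNP for Cxcl2 in PEP+/+ from -1.53 to 0.51. DESeq2's size factors in edgeR changed none of 80 log2 fold changes in direction or call. The block changed 17 of 80, each to a call, and none of the other 63. A fit to the compared conditions alone rests on fewer libraries, and other causes were not tested.

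Depth limits the genes with few reads. Ccl22 and Xcl1 had too few for the fit, and Cxcl2 had 0 to 46 reads per library. With 2 replicates a condition, the simulated test without the block recovered 0% of changes of 1 on the log2 scale. The simulated counts held no shared difference between the replicate sets, so they do not tell what the block fit can find. In the measured data the fit without the block did call Ccl2 at -1.08 by DEX before DNP in PEP+/+ and at 0.97 by DNP under DEX in PEP-/-.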

Other observations

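Ccl6, which lies between Ccl9 and Ccl3, differed between the replicate sets and was called in none of the 8 treatment comparisons by edgeR, with or without the block. It was measured at 29.5 to 109 CPM in the 8 numbered libraries and at 8.95 to 17.6 CPM in the 8 lettered libraries, and the numbered library was higher in each of the 8 conditions. The labels do not say what sets the numbered and lettered samples apart. Ccl9 and Ccl3 were also higher in the numbered library of all 4 conditions without DNP, whereas Ccl1 was higher in the lettered library in both IgE DNP conditions.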
